A study of Triticum aestivum with 3 samples.

Results

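The wheat FT1 genes, also known as VRN3, were followed in seedling shoots as a set of 3 homoeologs, the copies of a gene contributed by the A, B and D subgenomes of hexaploid wheat. They were chosen by identifier, by a rule that uses no measured value, although the set was picked with earlier results of these data known: TraesCS7A02G115400 on chromosome 7A (FT1-7A), TraesCS7B02G013100 on chromosome 7B (FT1-7B) and TraesCS7D02G111600 on chromosome 7D (FT1-7D). They make up 3 of the 165276 genes quantified. The tables hold identifiers only, so the assignment of these identifiers to FT1 was taken as given with the list and was not checked against sequence. All 3 were found in the tables, each as a high-confidence gene with a single transcript model.

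FT1 encodes the wheat florigen, a small protein of the phosphatidylethanolamine-binding protein family related to FLOWERING LOCUS T of Arabidopsis and to Hd3a of rice. In cereals its transcript is made in leaves under inductive day length, and the protein moves through the phloem to the shoot apex, where it acts with a bZIP partner to switch the meristem from making leaves to making the inflorescence. FT1 is known as a convergence point of the photoperiod and vernalization pathways, being promoted by long days through PPD1 and held back before winter by VRN2.

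The libraries come from 3 biological replicates of wild-type shoots of the cultivar Chinese Spring, untreated and of a single condition, so that the comparisons possible are between homoeologs and between replicates. Seeds were kept for 2 days in the dark at 4 °C and the seedlings then raised in long days at 18 °C, and the sources give both 12 and 14 days as their age. Neither the hours of light nor the hour of harvest is given in the sources used here. RNA was extracted from 180 mg of shoots, and as no other gene of the tables carries a name, the labelled tissue could not be checked with marker genes.

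Almost no FT1 transcript was detected in these shoots. Replicates 1, 2 and 3 held 3, 1 and 0 estimated counts for the sum of the 3 homoeologs, against library totals of 75465873, 76337649 and 67470696 estimated counts. An estimated count is the number of reads that the quantification assigned to a transcript, and a read compatible with several transcripts is divided between them in fractions. The exact 95% Poisson intervals of these sums were 0.619 to 8.77, 0.0253 to 5.57 and 0 to 3.69 counts. Over the 3 libraries, 4 counts were assigned to FT1 out of 219274218, which is 0.0182 CPM, the count scaled to library size (interval 0.00497 to 0.0467). These intervals cover counting error only. In RNA from whole shoots, a low level in every cell and a higher level in few cells cannot be told apart.

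FT1-7B gave nearly all of this signal. It had 2.98 estimated counts in replicate 1, 1 in replicate 2 and 0 in replicate 3. In TPM, a unit that corrects for transcript length and for the size of the library, these are 0.0341, 0.0120 and 0. The mean level of FT1-7B was 0.0154 ± 0.0173 TPM (SD, n = 3), a mean smaller than the spread between replicates. Without replicate 1 the mean was 0.0060 TPM.

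FT1-7A had 0.0190 estimated counts in replicate 1 and 0 in replicates 2 and 3. No whole read was therefore assigned to it in any library, and the deposited 0.00066 TPM of replicate 1 stands for a fraction of a single read. The fractions of FT1-7A and FT1-7B in replicate 1 add up to 3 counts within 0.001, so that whole reads are recovered only in the sum of these 2 homoeologs. Since the quantification divided reads between similar transcripts, the assignment of so few reads to FT1-7B rather than FT1-7A is itself uncertain.

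FT1-7D was at 0 estimated counts in each of the 3 libraries. The usual limit for a count of 0 is 3 counts (one-sided), and for FT1-7D this corresponds to 0.0326, 0.0343 and 0.0347 TPM in replicates 1, 2 and 3. The two-sided 95% Poisson interval used above is wider, ends at 3.69 counts and gives 0.0401, 0.0421 and 0.0426 TPM. Over the 3 libraries together, the limits are 0.0113 TPM (3 counts) and 0.0139 TPM (3.69 counts). At this depth, a level of FT1-7D below these limits could not be told from 0.

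**Figure D1:**
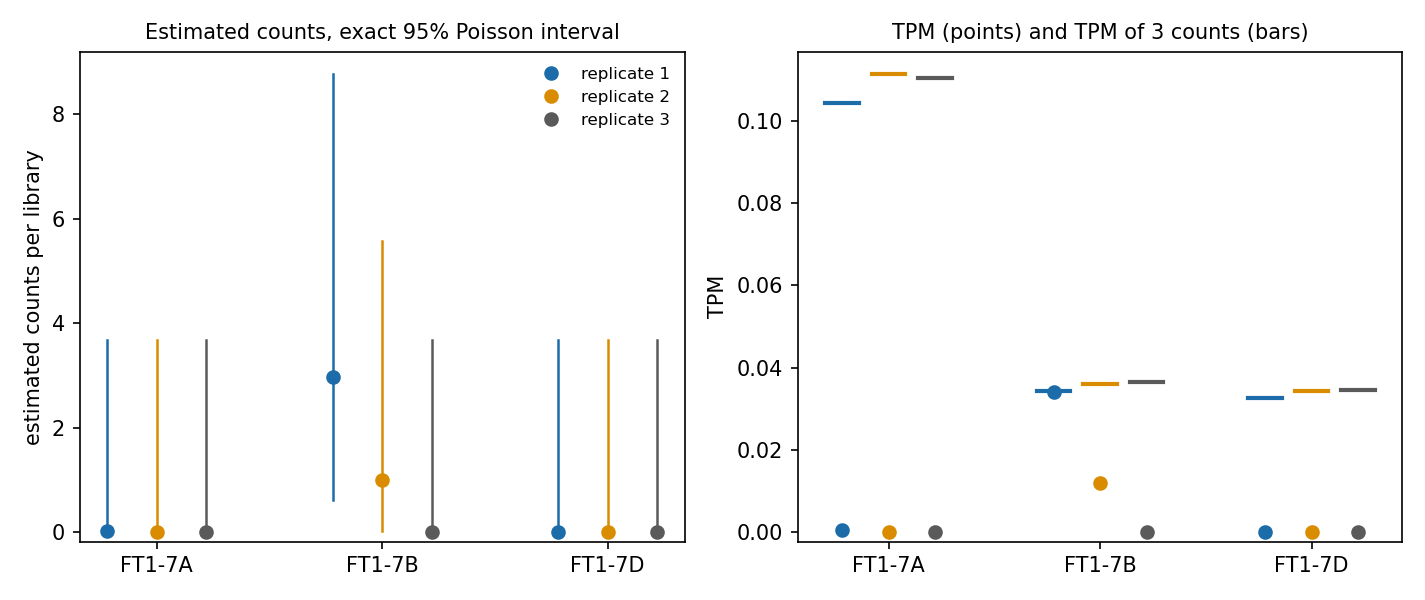
Left, estimated counts of each FT1 homoeolog per library (points, coloured by replicate) with exact 95% Poisson intervals of the rounded counts (lines). Right, the deposited TPM (points) beside the TPM that 3 counts are worth in the same library (bars). Each point lies at or under 2.98 counts, FT1-7B in replicate 1 just under its bar and the others well under theirs, and the bars of FT1-7A, at 0.104 to 0.111 TPM, stand above those of the other 2 homoeologs.

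The homoeologs were not measured with the same sensitivity, because their transcript models differ in length. The model of FT1-7A has 531 bases, a multiple of 3, whereas those of FT1-7B and FT1-7D have 1277 and 1333 bases. A single count was accordingly worth 0.0347 to 0.0371 TPM for FT1-7A, 0.0114 to 0.0121 TPM for FT1-7B and 0.0109 to 0.0116 TPM for FT1-7D. The one-sided limit of 3 counts per library lay at 0.104, 0.111 and 0.110 TPM for FT1-7A, and over the 3 libraries together at 0.0362 TPM. The two-sided interval ended at 0.128, 0.137 and 0.136 TPM, and over the 3 libraries together at 0.0445 TPM. By effective length, the FT1-7A model offers 32.8% of the target of FT1-7B and 31.2% of that of FT1-7D. The lack of whole reads on FT1-7A thus bounds its level less tightly than the lack of reads on FT1-7D.

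The levels of the homoeologs could not be told apart. By mean TPM the order was FT1-7B, FT1-7A, FT1-7D, and in TPM no neighbours in it differed beyond the spread between replicates. On the log2 scale below, FT1-7A minus FT1-7B, at -1.06, was barely larger than its SD of 1.03. FT1-7A took 0 of the 4 counts it shared with FT1-7B (rounded to whole counts, exact 95% binomial interval 0% to 60.2%). At equal TPM its shorter model would take 24.7%, a share inside that interval. FT1-7B took 4 of the 4 counts it shared with FT1-7D (interval 39.8% to 100%), where equal TPM would give it 48.8%, again inside the interval. No fold change is read from these values or from the log2 differences below, since no homoeolog was above 3 counts in any library.

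On the scale of log2(TPM + 0.01), FT1-7A minus FT1-7B averaged -1.06 ± 1.03 (SD, n = 3; exact two-sided sign-flip permutation test, p = 0.5, adjusted 0.75). FT1-7A minus FT1-7D averaged 0.03 ± 0.053 (exact sign-flip permutation p = 1, adjusted 1) and FT1-7B minus FT1-7D averaged 1.09 ± 1.07 (exact sign-flip permutation p = 0.5, adjusted 0.75). The p-values were adjusted by Benjamini-Hochberg over the 3 pairs. In replicate 3 every homoeolog was at 0 and each of these differences was 0. With 3 replicates this test cannot go below 0.25, and a difference of 0 raises that limit, since flipping its sign changes nothing. With the 0 of replicate 3, the pairs with FT1-7B could not go below 0.5. FT1-7A minus FT1-7D was also 0 in replicate 2, so its p-value was fixed in advance. These p-values therefore decide nothing about the homoeologs. The size of the differences is set by the value added before taking logarithms.

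The replicates could not be told apart either by the sum over the homoeologs. The intervals of the sums in replicates 1, 2 and 3 overlap, and the value with no count, replicate 3, came from the library with the lowest total. Replicate 3 also stood apart over all genes. Among 68082 genes with at least 10 estimated counts in every replicate, the median log2 ratio of TPM was 0.60 for replicate 1 over replicate 3 and 0.69 for replicate 2 over replicate 3, against -0.07 for replicate 1 over replicate 2. The most abundant transcript, of TraesCS3B02G186100, took 6.88%, 8.66% and 12.0% of the estimated counts in replicates 1, 2 and 3. The part of these differences in the missing FT1 counts of replicate 3 was not tested. With 0.01 TPM added, the log2 ratio of summed FT1 TPM was 1.02 (replicate 1 over 2), 2.16 (1 over 3) and 1.14 (2 over 3). The central 95% of the 68082 genes, with no value added, were -1.01 to 0.69, -1.37 to 1.71 and -1.33 to 1.87. Only the last of these FT1 ratios lay inside. With 1 TPM added, the FT1 ratios were 0.032, 0.049 and 0.017, each inside, so this outcome depends on the value added. The 68082 genes had at least 10 counts in every replicate, so their spread is no yardstick for sums of 3, 1 and 0 counts.

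Whether FT1 counts as expressed depends on a single estimated count. With the rule of the study's methods, a median TPM of the 3 replicates above 0, FT1-7B was expressed and FT1-7A and FT1-7D were not, 1 of 3, where 61.3% of all genes and 67.3% of high-confidence genes were expressed. The call for FT1-7B rests on the 1 estimated count of replicate 2, its median replicate. Of the 70762 expressed high-confidence genes, 2967 (4.19%) likewise had a median of no more than 1 estimated count. With at least 3 estimated counts in the median replicate required, 0 of the 3 homoeologs were called, against 60.9% of high-confidence genes. The homoeologs called were also 0 of 3 with TPM above 0 in every replicate (62.0% of high-confidence genes), with a median TPM of at least 0.5 (42.8%) and with a median TPM of at least 1 (36.4%). A set of 3 genes is too small for its share to be read against these backgrounds.

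Genes without any count are common in these shoots. FT1-7D belongs to the 27057 of 105200 high-confidence genes (25.7%) at 0 in all 3 libraries. On its own chromosome, 7D, the share was 27.3%, with 29.0% on chromosome 7A and 27.4% on chromosome 7B. FT1-7A is 1 of 334 high-confidence genes (0.317%) whose counts over the 3 libraries were above 0 but summed to less than 1. FT1-7B, with 3.98 summed counts, was above 0 in exactly 2 replicates, as were 5.28% of high-confidence genes, and 33.6% of high-confidence genes had no more summed counts. Its median level of 0.0120 TPM compares with a median of 1.19 TPM over the 3160 expressed high-confidence genes of chromosome 7B, of which the central 90% lay between 0.0163 and 24.7 TPM. The median of FT1-7B thus fell below the 5th percentile of the expressed genes of its chromosome. It rests on the 1 count of replicate 2, whose Poisson interval, 0.000304 to 0.0668 TPM, spans that percentile. The rank is therefore not settled.

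**Figure D2:**
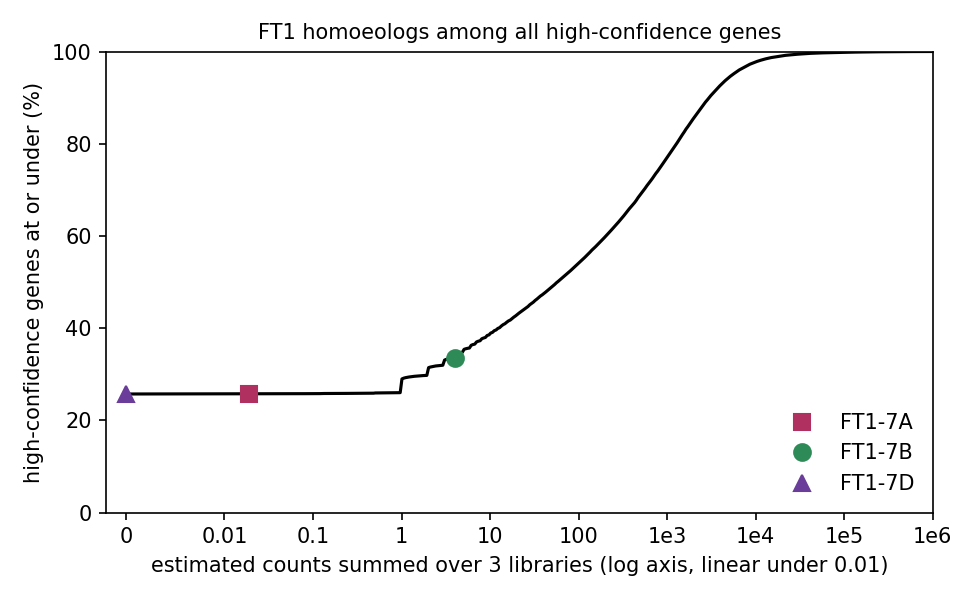
Cumulative share of the 105200 high-confidence genes (vertical axis, percent) at or under a given number of estimated counts summed over the 3 libraries (horizontal axis, logarithmic above 0.01 counts). FT1-7D and FT1-7A sit at the step of genes without reads, near 25.7%, and FT1-7B at 3.98 counts and 33.6%.

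At each FT1 locus, some genes nearby were read in the same libraries, few of them at high levels, and others were at 0. Neighbours were taken as the 5 high-confidence genes before and the 5 after each homoeolog in the order of the identifiers, and are given by identifier only. Of the 30 neighbours, 16 had a median TPM above 0 and 12 were at 0 in all 3 libraries. Among the high-confidence genes of chromosomes 7A, 7B and 7D, 63.7%, 65.1% and 65.1% were expressed. The shares at 0 in all 3 libraries were 29.0%, 27.4% and 27.3%. The median level of the 16 was 1.64 TPM.

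Around FT1-7A, 4 of 10 neighbours were expressed. The gene just before it, TraesCS7A02G115300, had 242, 234 and 122 TPM in replicates 1, 2 and 3, and the gene just after it, TraesCS7A02G115500, had 3.98, 4.40 and 2.39 TPM. FT1-7A itself, between them, had at most a fraction of a read.

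Around FT1-7B, 5 of 10 neighbours were expressed. TraesCS7B02G013200, the next gene, had 69.5, 72.3 and 24.9 TPM, whereas TraesCS7B02G013001, the gene before, was at 0 in each library. The lowest expressed neighbour, TraesCS7B02G013600, had 0.0362, 0.123 and 0.0625 TPM on 8, 26 and 13 estimated counts. It gave more counts per TPM than FT1-7B, which in replicate 1 had 2.98 counts at 0.0341 TPM. It is therefore no measure of the level at which FT1 would be read in every library.

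Around FT1-7D, 7 of 10 neighbours were expressed, 2 of them on a median of about 1 estimated count. TraesCS7D02G111500, just before it, had 4.76, 4.61 and 2.60 TPM, and TraesCS7D02G111700, just after it, had 0 in all 3 libraries. The highest neighbour was TraesCS7D02G111800, at 96.5, 101 and 83.3 TPM. Of the 13 neighbours with a median of at least 10 counts at the 3 loci, 12 were lowest in replicate 3, as were 75.5% of all 56333 high-confidence genes with that many counts, so that nothing particular to the FT1 loci is read from this count.

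**Figure D3:**
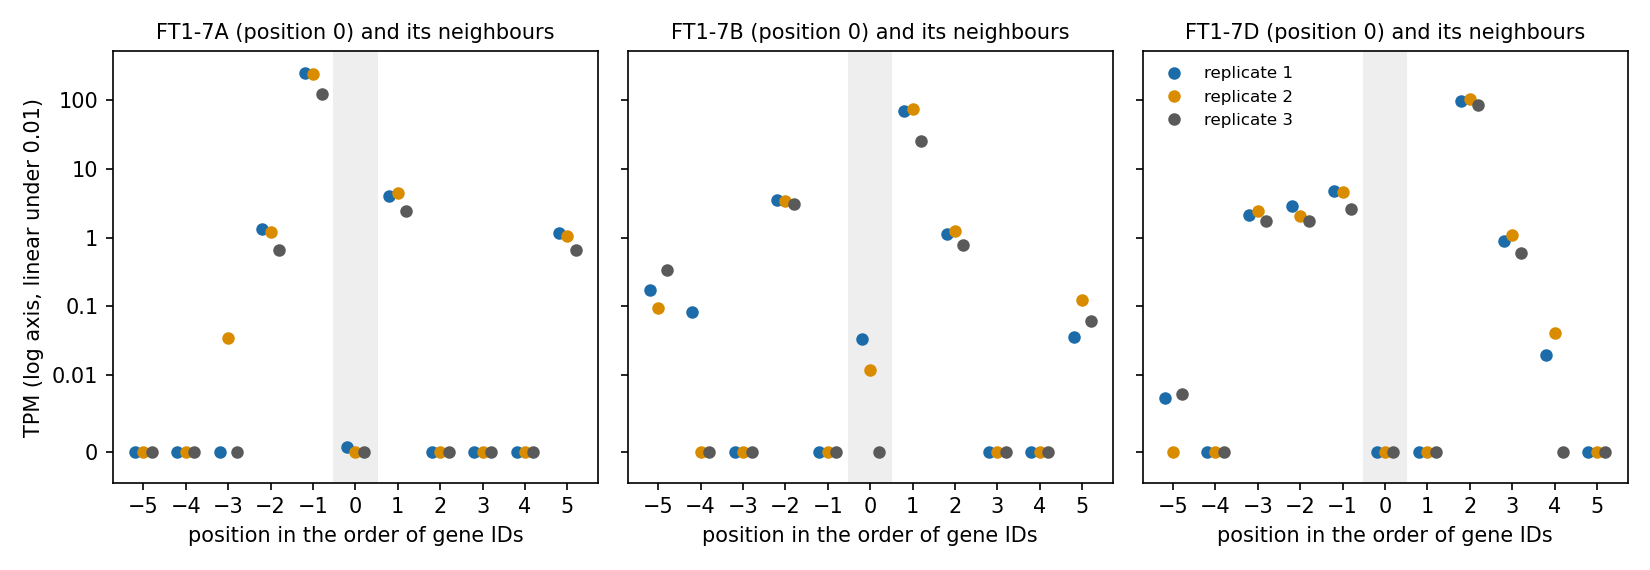
TPM of each FT1 homoeolog (position 0, shaded) and of the 5 high-confidence genes on either side in the order of gene identifiers, with points for replicates 1, 2 and 3 on an axis that is logarithmic above 0.01 TPM. FT1 lies at or near 0 at each locus. The highest neighbour reaches 234 TPM (FT1-7A), 69.5 TPM (FT1-7B) and 96.5 TPM (FT1-7D) in the median replicate. Of the 30 neighbours, 12 are at 0 in every library, as are 27.3% to 29.0% of the high-confidence genes of these chromosomes.

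The high-confidence genes with the values most like those of FT1-7B, by Euclidean distance of log2(TPM + 0.01) over the 3 libraries, were TraesCS5B02G511200, TraesCS2D02G071700 and TraesCS5B02G535900, at distances of 0.0061, 0.0092 and 0.020. Each had 3, 1 and 0 estimated counts in replicates 1, 2 and 3. For FT1-7A the closest were TraesCS1B02G113900, TraesCS7B02G170300 and TraesCS5D02G473400, at distances of 0.026, 0.030 and 0.055, all with less than 1 count in replicate 1 and 0 in the others. FT1-7D was at distance 0 from the 27056 other high-confidence genes without counts, so none can be singled out. Over 3 libraries and at such counts, likeness is a matter of where single reads fell.

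A list of 35 other identifiers, written down from general knowledge as genes of the flowering pathway, gave a background for FT1. The sources used here do not annotate these identifiers, so none is named and the list was not checked. Of the 35, 25 had a median TPM above 0, against 67.3% of high-confidence genes. All 25 had at least 3 estimated counts in the median replicate, against 60.9% of high-confidence genes. The median TPM of the 25 reached 30.5, and the median over the list was 3.42 TPM, against 0.193 TPM over all high-confidence genes. The other 10 had no more summed counts than FT1-7B, and 8 of these were at 0 in all 3 libraries. The list therefore held both genes read at up to 9527 counts in the median replicate and genes as low as FT1.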

How the data were processed

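Total RNA of shoots was made into directional poly(A) libraries and sequenced. The authors trimmed reads with Trimmomatic 0.36 (submitters' processing notes) and quantified transcripts with kallisto, whose version and settings are not given in the sources used here, with gene models taken from the IWGSC RefSeq v1.1 annotation. The authors deposited, per transcript and library, an estimated count (not normalized, not always whole) and a TPM value, with lengths in bases.

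Both were summed over the transcripts of each gene. Intervals were exact Poisson or Clopper-Pearson (95%), on counts rounded to whole numbers. The TPM of 1 count was computed from the effective length of the transcript and a sum over all transcripts of the library. That sum is of estimated counts divided by effective length. Log2 values used 0.01 TPM added. Homoeologs were compared within libraries by an exact sign-flip permutation test. The p-values rest on 3 replicates of a single condition. As some differences were 0, they measure neither the size nor the spread of the differences. Scaling, intervals and distances were tested on simulated data.

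Members and lists were chosen with earlier results of these data known. Genes are named by rule: the members, their 5 neighbours on each side, and the 3 most alike genes, of which some are summarised. Alternatives were other pseudocounts, counts without length, rescaled TPM, other cuts for expressed genes, and leaving out each replicate. Coordinates and sequences of FT1, and root, chromatin and loop data, were not used here. The software was scipy 1.17.1, pandas 2.3.3, numpy 2.4.6 and matplotlib 3.10.9 under Python 3.11.15.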

Additional observations from a re-analysis of the deposited data

How the results depend on the processing

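The number of FT1 homoeologs called expressed was 1 with a median TPM above 0, and 0 with TPM above 0 in all 3 replicates, with at least 3 estimated counts in the median replicate, with a median TPM of at least 0.5 and with a median TPM of at least 1. Leaving out a replicate gave 1 to 2, with FT1-7A added without replicate 2 or replicate 3, where the median of 2 values takes in the fraction of a read in replicate 1. The log2 difference of FT1-7A and FT1-7D ranged from 0 to 0.046 when a replicate was left out, being 0 without replicate 1. The other 53 of 60 alternatives kept the direction of the difference, or moved a level or a ratio between replicates by less than its spread or counting interval. Many of these could not have come out otherwise, so their number is no measure of robustness. Each homoeolog has a single transcript, FT1-7D was at 0 in every library, and another pseudocount cannot reverse these pair differences. The mean TPM of FT1-7B ranged from 0.0060 (without replicate 1) to 0.0230 (without replicate 3), against 0.0154 with all 3. The pair differences shrank with the value added: FT1-7B minus FT1-7D was 1.09, 0.20 and 0.022 with 0.01, 0.1 and 1 TPM. The comparison restricted to replicates with at least 10 counts in both homoeologs was not run, because no replicate reached that number. In each library, every FT1 value rests on no more than 3 estimated counts, which limits its precision.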
